A study of Mus musculus with 10 samples.

Results

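Macrophage marker genes were followed in mouse calf muscle 1 h after an injection of ethanol. They are 10 genes taken by name, all present among the 24394 named rows of the deposited count table: *C1qa*, *C1qb*, *C1qc*, *Csf1r*, *Adgre1*, *Cd68*, *Lyz2*, *Mrc1*, *Cd163* and *Lyve1*. The choice of genes used no measured value of the comparison, but it was made with earlier results of these data known.

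The ethanol group held 5 male C57BL/6 mice (51, 57, 59, 60 and 62), aged 12 weeks, that were fasted for about 16 h and then given ethanol at 3 g/kg into the peritoneum. The saline group held 5 mice (32, 34, 36, 38 and 39) of the same sex, strain and age, which were fasted alike and given the same volume of saline. Both groups stayed fasted until the gastrocnemius and plantaris, the calf muscles, were removed together under isoflurane 1 h after the injection. Poly(A) RNA of the whole tissue was counted per gene, with 1 library per mouse.

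Macrophages of healthy muscle are resident phagocytes that lie mainly in the connective tissue around fibres and vessels, where they clear debris and take part in repair. Their survival depends on the receptor CSF1R, which binds the growth factors CSF1 and IL-34. The complement component C1q, which starts the classical pathway, is made largely by macrophages, and CD163, MRC1 and LYVE1 mark perivascular, tissue-resident populations in the mouse.

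Library totals, in units of 1e+06 counts, ran from 20.3 to 31.3 in ethanol and from 32.0 to 42.7 in saline, and the ranges did not overlap (two-sided exact permutation p = 0.00794, the smallest that 252 splits allow, n = 5 each). Muscle fibre genes stood high in both groups: the 10 fibre markers, *Myh4* and *Acta1* among them, summed to 138003 ± 9737 CPM (counts per 1e+06 counts of the library) in ethanol and 135722 ± 9399 CPM in saline (SD, n = 5 each). The 10 macrophage genes summed to 145 ± 18.8 CPM in ethanol and 137 ± 14.8 CPM in saline (SD, n = 5 each). CPM values here are scaled by the TMM method, which corrects for library total and composition. In whole tissue, a change in the number of macrophages and a change in RNA per macrophage cannot be told apart.

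The 3 chains of C1q are encoded side by side on mouse chromosome 4 (GRCm38, minus strand), with *C1qb* at 136880129 to 136886187, *C1qc* at 136889804 to 136893065 and *C1qa* at 136895917 to 136898803. The gaps between neighbours are 3616 and 2851 bases. RefSeq promoter windows (GRCm38.p6, 250 bases before to 50 after the start) were searched for 6 of the genes: *C1qb*, *C1qc*, *Cd68*, *Mrc1*, *Cd163* and *Lyz2*. The windows of *C1qa*, *Csf1r*, *Adgre1* and *Lyve1* were not searched, so the motif counts say nothing about these genes. Below are those of *C1qb* (chr4:136886151-136886450), *C1qc* (chr4:136892865-136893164) and *Cd68* (chr11:69666121-69666420), all 5′ to 3′ on the minus strand. They are shown because the C1q pair lies in 1 gene cluster and *Cd68* is a general macrophage marker. Capitals mark GAGGAA on either strand (TTCCTC when read on the strand shown), the core letters bound by PU.1, the transcription factor of the myeloid lineage that *Spi1* encodes.
C1qb: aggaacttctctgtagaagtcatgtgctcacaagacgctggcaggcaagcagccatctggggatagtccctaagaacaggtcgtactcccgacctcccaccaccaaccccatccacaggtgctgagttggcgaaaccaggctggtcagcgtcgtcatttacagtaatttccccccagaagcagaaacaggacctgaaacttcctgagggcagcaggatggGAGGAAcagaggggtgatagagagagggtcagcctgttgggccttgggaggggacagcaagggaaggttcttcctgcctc
C1qc: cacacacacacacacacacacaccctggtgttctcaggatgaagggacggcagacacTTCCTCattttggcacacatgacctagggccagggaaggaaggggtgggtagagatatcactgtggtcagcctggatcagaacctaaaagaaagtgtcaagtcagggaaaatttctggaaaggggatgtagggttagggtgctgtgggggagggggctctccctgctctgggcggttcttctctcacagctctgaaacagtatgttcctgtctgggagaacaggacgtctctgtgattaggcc
Cd68: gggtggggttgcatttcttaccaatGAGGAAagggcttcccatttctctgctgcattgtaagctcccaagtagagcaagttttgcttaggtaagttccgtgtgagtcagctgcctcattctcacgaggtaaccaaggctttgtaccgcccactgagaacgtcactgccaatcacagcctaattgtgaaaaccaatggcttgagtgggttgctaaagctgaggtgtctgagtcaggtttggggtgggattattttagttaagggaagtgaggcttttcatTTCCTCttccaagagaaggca
GAGGAA was found in 4 of the 6 windows, and it is held by 28.3% of the 32851 RefSeq windows of that length used here. Counted from the start of transcription, its first base on the strand shown lay at -30 in *C1qb* and at -193 in *C1qc*. *Cd68* held it at -225 and at 30, and *Mrc1* held it at -180, -167 and -35. The longer form GAGGAAGT, which contains GAGGAA, was found in *C1qc* alone (3.20% of all windows). TTGCNNAA, a C/EBP motif, was found in *Cd68* alone (10.8% of all windows), as was TGANTCA, an AP-1 motif (7.81%), with 2 matches. TATAAA was in none of the 6 windows (13.6% of all windows). Both strands were searched for each. These matches describe letters in a window and show no binding.

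The levels of the genes were set against each other per length, as CPM per kilobase (kb) of the exons of their coding transcripts in GENCODE M21. *Lyz2*, encoding the lysozyme of myeloid cells, stood highest, at 38.5 ± 5.67 CPM per kb in ethanol and 37.9 ± 4.72 in saline (SD, n = 5 each). *C1qa* followed, at 14.6 ± 1.89 in ethanol and 12.5 ± 1.27 in saline, then *C1qb* at 10.6 ± 1.68 and 9.25 ± 0.91, and *C1qc* at 9.24 ± 0.81 and 8.32 ± 0.70, with ethanol given before saline for each. *C1qb* and *C1qc* overlapped in both groups. *Csf1r* (3.56 ± 0.57 CPM per kb in ethanol, 3.06 ± 0.61 in saline), *Lyve1* (3.40 ± 0.45 and 3.36 ± 0.81) and *Cd163* (2.93 ± 0.62 and 3.03 ± 0.74) came next and did not differ beyond their spread. *Cd68* stood at 2.26 ± 0.50 CPM per kb in ethanol and 2.20 ± 0.31 in saline, and *Mrc1* at 1.81 ± 0.42 in ethanol and 1.79 ± 0.23 in saline. *Adgre1*, encoding the surface antigen F4/80, was the lowest, at 1.04 ± 0.15 CPM per kb in ethanol and 0.89 ± 0.15 in saline. The order of means was the same in both groups except that *Csf1r* stood above *Lyve1* in ethanol and below it in saline. The per-length order was not tested.

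**Figure D1:**
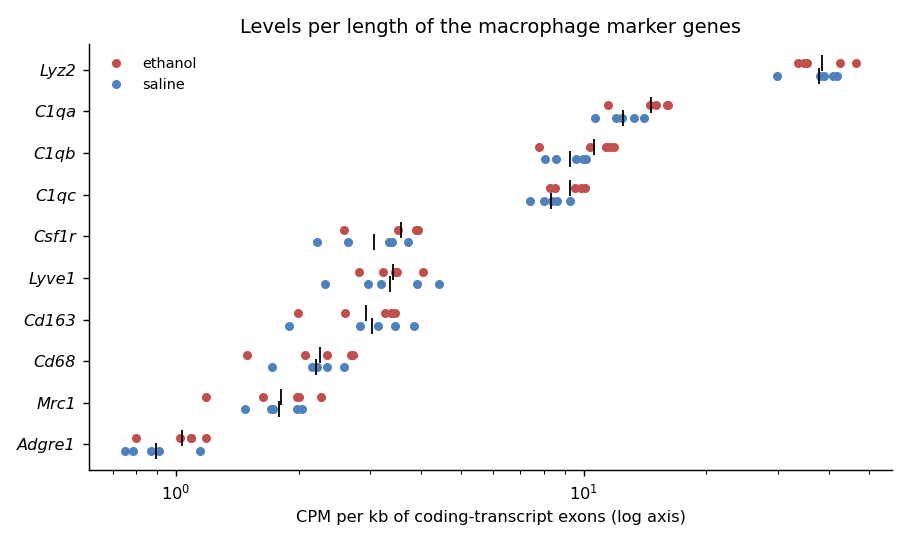
Levels of the 10 macrophage marker genes as CPM per kb of coding-transcript exons, on a log axis. Each point is 1 library, ethanol in red above saline in blue, and the vertical tick is the group mean. *Lyz2* stands highest, at means of 38.5 in ethanol and 37.9 in saline, then the 3 C1q chains, and *Adgre1* stands lowest.

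*Lyz2* has a near-identical copy on chromosome 10, *Lyz1*, which in the mouse is the lysozyme of Paneth cells. Their coding sequences differ at 22 of 444 bases (95.045% identity), and 25.3% of the 100-base windows of the *Lyz2* transcript match *Lyz1* with at most 2 mismatches, against 1.97% that match exactly. The stretch below is the read-length window with the most differences, coding bases 33 to 132 of each gene (minus strand, GENCODE M21 on GRCm38). It is shown because a read there separates the pair, and capitals mark the 13 bases that differ.
Lyz2: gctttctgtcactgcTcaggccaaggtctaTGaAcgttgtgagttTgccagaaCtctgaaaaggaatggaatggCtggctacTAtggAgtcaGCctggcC
Lyz1: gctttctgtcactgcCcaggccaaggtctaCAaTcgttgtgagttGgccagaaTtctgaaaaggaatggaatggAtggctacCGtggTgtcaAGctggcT
The ratio of *Lyz1* to *Lyz2* counts was 0.12 ± 0.02 in ethanol and 0.12 ± 0.03 in saline (SD, n = 5 each). No source used here says how reads matching both were assigned, and *Lyz2* counts are uncertain to that extent. The other genes lie on GRCm38 chromosome 10 at 117277331 to 117282321 (*Lyz2*, minus strand), 18 at 61100598 to 61132149 (*Csf1r*, plus), 17 at 57358691 to 57483527 (*Adgre1*, plus) and 11 at 69664213 to 69666153 (*Cd68*, minus). *Mrc1* lies on chromosome 2 at 14229392 to 14332057 (plus), *Cd163* on 6 at 124304656 to 124330527 (plus) and *Lyve1* on 7 at 110850607 to 110863239 (minus). *Csf1r* shares 873 exon bases (15.1% of its annotated exon bases) with *Hmgxb3* on the opposite strand, and without strand the reads of both cannot be told apart there. No other macrophage marker gene shared exon bases with another annotated gene.

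The main comparison asked whether macrophage marker transcripts differed after ethanol. None of the 10 genes passed a false discovery rate (FDR) of 0.05 by edgeR's quasi-likelihood test, with 1 at an unadjusted p under 0.05. None passed by DESeq2 or limma-voom, with 0 at an unadjusted p under 0.05 by either. Over all 13180 genes tested, edgeR and limma-voom called 0%, and DESeq2 called 0.468% of the 11745 genes to which it gave an adjusted p. The edgeR FDR values of the 10 genes ran from 0.406 to 0.969. Log2 fold changes, ethanol minus saline, were above 0 for 9 of the 10 genes, against 50.2% of all genes tested, with a median of 0.10 against 0.00096 over all genes. Without ethanol 51, or without ethanol 60, 6 of the 10 were above 0. The 1 gene at an unadjusted p under 0.05, *C1qa*, was on the higher side, where 6.22% of all genes lay, and none was on the lower side, where 5.91% lay. All 10 genes passed the filter on low counts.

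The 3 C1q genes each had a positive log2 fold change. In the protein, each subunit joins an A, a B and a C chain. *C1qa* stood at 16.7, 16.8, 11.9, 15.7 and 15.2 CPM in ethanol 51, 57, 59, 60 and 62, against 13.8, 11.1, 12.5, 12.9 and 14.6 CPM in saline 32, 34, 36, 38 and 39. Of the ethanol libraries, 4 lay above the highest saline library, and ethanol 59 lay below all saline libraries but saline 34. The means were 15.2 ± 1.97 CPM in ethanol and 12.99 ± 1.32 CPM in saline (SD, n = 5 each). The difference on the log2 scale, as fitted by edgeR, was 0.23 ± 0.11 (SE, FDR = 0.406). The 95% interval ran from 0.0054 to 0.46 (1.00-fold to 1.37-fold). Its unadjusted p in the edgeR model was 0.0454.

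*C1qb* stood at 12.4, 12.9, 8.44, 11.3 and 12.6 CPM in ethanol 51, 57, 59, 60 and 62, against 10.9, 8.76, 10.4, 11.01 and 9.30 CPM in saline 32, 34, 36, 38 and 39. The same 4 ethanol libraries lay above the highest saline library, and ethanol 59 was the lowest of all 10. The log2 fold change was 0.20 ± 0.12 (SE, edgeR FDR = 0.509, 95% interval from -0.06 to 0.45). *C1qc* stood at 11.8, 10.2, 9.97, 12.2 and 11.4 CPM in ethanol 51, 57, 59, 60 and 62, against 10.1, 8.87, 9.62, 10.4 and 11.1 CPM in saline 32, 34, 36, 38 and 39. Here 3 ethanol libraries lay above the highest saline library. Its log2 fold change was 0.15 ± 0.09 (SE, edgeR FDR = 0.516, 95% interval from -0.05 to 0.35).

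The proportions of the chains were similar between groups. The ratio of *C1qa* to *C1qb* counts was 1.33 ± 0.08 in ethanol and 1.30 ± 0.16 in saline, and that of *C1qa* to *C1qc* was 1.37 ± 0.17 in ethanol and 1.30 ± 0.05 in saline (SD, n = 5 each). Single libraries departed from this. *C1qa* to *C1qc* reached 1.64 in ethanol 57, and *C1qa* to *C1qb* reached 1.57 in saline 39. These count ratios are not corrected for length and were not tested.

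*Csf1r*, the growth factor receptor on which macrophages depend, stood at 19.3, 19.5, 12.9, 19.5 and 17.5 CPM in ethanol 51, 57, 59, 60 and 62, against 16.6, 11.03, 13.1, 18.5 and 16.9 CPM in saline 32, 34, 36, 38 and 39. The groups overlapped, with ethanol 59 and saline 34 the lowest of each. The log2 fold change was 0.22 ± 0.15 (SE, edgeR FDR = 0.547, 95% interval from -0.09 to 0.54). *Adgre1* stood at 3.31, 3.52, 2.58, 3.83 and 3.52 CPM in ethanol 51, 57, 59, 60 and 62, against 2.54, 2.44, 2.94, 3.71 and 2.82 CPM in saline 32, 34, 36, 38 and 39. Apart from ethanol 59 and saline 38, its ethanol values lay above its saline values. The log2 fold change was 0.22 ± 0.15 (SE, edgeR FDR = 0.566, 95% interval from -0.10 to 0.53).

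*Cd68*, encoding a lysosomal glycoprotein of phagocytes, stood at 3.41, 2.95, 1.88, 2.60 and 3.37 CPM in ethanol 51, 57, 59, 60 and 62, against 2.17, 2.71, 2.79, 2.94 and 3.24 CPM in saline 32, 34, 36, 38 and 39. The ethanol values spanned the saline range on both sides (log2 fold change 0.05 ± 0.17, SE, edgeR FDR = 0.934). *Cd68* had the fewest counts, 48 to 116 per library, so counting alone gives a coefficient of variation (CV) of 11.3% in ethanol and 9.94% in saline, beside observed CVs of 22.3% and 14.2% in the same order. *Lyz2* stood at 61.2, 44.1, 45.7, 55.8 and 46.5 CPM in ethanol 51, 57, 59, 60 and 62, against 55.0, 50.1, 39.3, 53.7 and 51.1 CPM in saline 32, 34, 36, 38 and 39. The groups overlapped, with ethanol 51 the highest and saline 36 the lowest of the 10 libraries. Its log2 fold change was 0.02 ± 0.11 (SE, edgeR FDR = 0.948), and the 95% interval ran from 0.863-fold to 1.198-fold.

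The scavenger and hyaluronan receptor genes had group means close to each other. *Mrc1*, the mannose receptor, stood at 10.8, 10.6, 6.37, 12.2 and 8.78 CPM in ethanol 51, 57, 59, 60 and 62, against 9.22, 7.94, 9.29, 10.9 and 10.6 CPM in saline 32, 34, 36, 38 and 39. *Cd163*, the receptor for haptoglobin and haemoglobin complexes, stood at 15.1, 14.6, 8.95, 15.5 and 11.6 CPM in ethanol 51, 57, 59, 60 and 62, against 12.7, 8.48, 15.5, 17.3 and 14.1 CPM in saline 32, 34, 36, 38 and 39. *Lyve1*, a hyaluronan receptor shared with lymphatic endothelium, stood at 9.97, 10.1, 8.13, 11.7 and 9.33 CPM in ethanol 51, 57, 59, 60 and 62, against 8.56, 6.73, 9.23, 12.8 and 11.3 CPM in saline 32, 34, 36, 38 and 39. For each of the 3 genes ethanol 59 was the lowest ethanol library and saline 34 the lowest saline library, and saline 38 was the highest saline library.

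The log2 fold changes were 0.02 ± 0.15 for *Mrc1* (95% interval from -0.30 to 0.34), -0.05 ± 0.19 for *Cd163* (-0.46 to 0.37) and 0.02 ± 0.15 for *Lyve1* (-0.31 to 0.35), with edgeR FDR values of 0.967, 0.941 and 0.969. These intervals leave room for changes of about the size measured for *C1qa* in either direction. The signs of *Mrc1*, *Cd163*, *Lyve1*, *Lyz2* and *Cd68* changed when single libraries were left out, while those of *C1qa*, *C1qb*, *C1qc*, *Csf1r* and *Adgre1* stayed positive in all alternatives run. The difference between these subsets was not tested. The ratio of *Mrc1* to *Csf1r* counts was 0.54 ± 0.05 in ethanol and 0.64 ± 0.07 in saline, and that of *Cd163* to *Csf1r* was 0.74 ± 0.06 in ethanol and 0.90 ± 0.17 in saline (SD, n = 5 each). Both pairs of ranges overlapped.

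**Figure D2:**
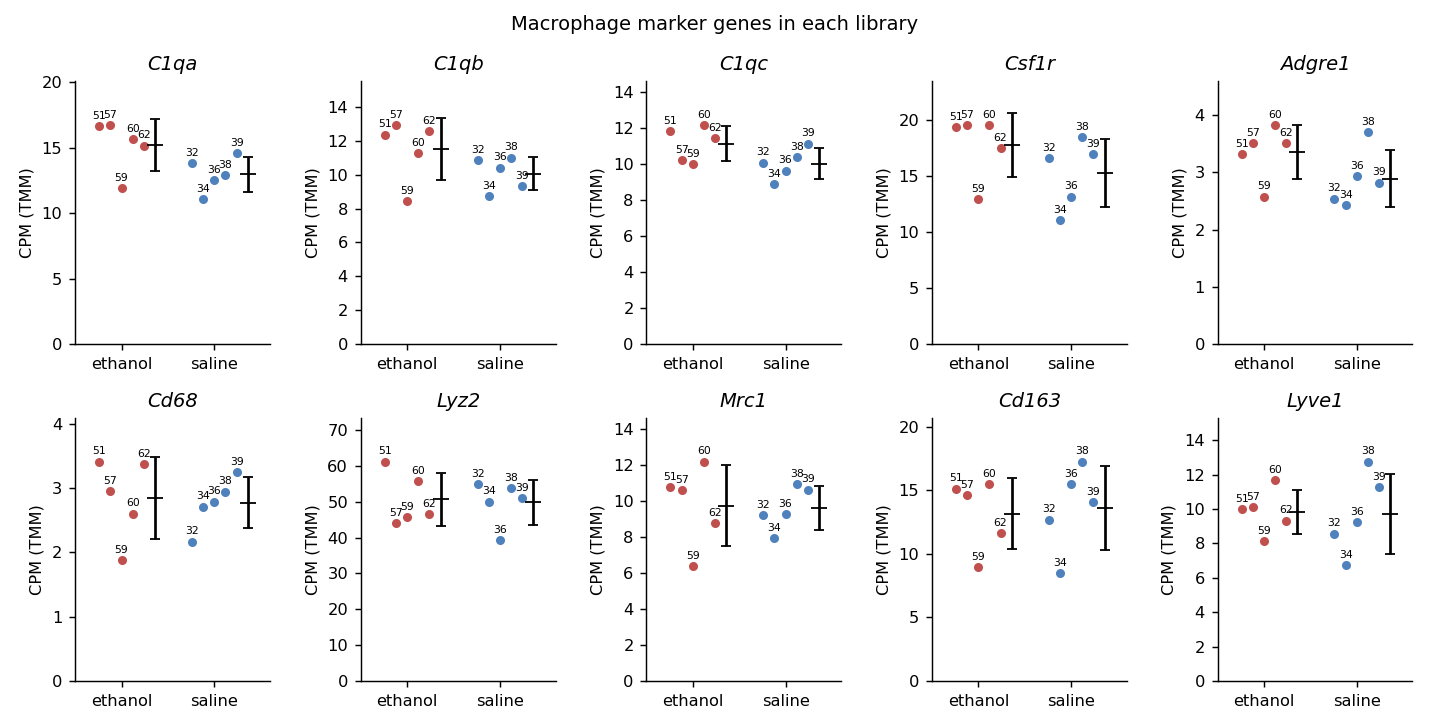
CPM of each macrophage marker gene in every library, ethanol in red left of saline in blue, with the mouse number above each point and the group mean ± SD (n = 5) in black beside it. Ethanol 59 is low for most genes, and 4 ethanol libraries stand above all saline libraries for *C1qa* and *C1qb*.

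The mean log2 CPM of the 10 genes was 3.42 ± 0.22 in ethanol and 3.32 ± 0.18 in saline (SD, n = 5 each), so the spread between mice exceeded the difference between groups. In each group, 1 library held most of the low values. Ethanol 59 was below the ethanol mean on the log2 scale for 10 of 10 genes and was the lowest ethanol library for 9. Saline 34 was below the saline mean for 9 genes and the lowest saline library for 8. Their mean deviations from their own group were -0.38 (ethanol 59) and -0.26 (saline 34) on the log2 CPM scale, whereas saline 38, at 0.21, was the highest saline library for 6 genes. Summed CPM of the 10 genes was 117 in ethanol 59 and 140 to 164 in the other ethanol libraries. For saline 34 this sum was 118, and for the rest of its group 125 to 154.

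Summed markers of other cells were low in the same libraries for some lists and not for others. Fibroblast markers summed to 2112 CPM in ethanol 59 (2548 to 3083 in the other ethanol libraries) and 2034 CPM in saline 34 (2526 to 2778 in the rest of its group). The highest of these genes set the sum: *Gsn*, at 1134 CPM in ethanol 59 and 1057 CPM in saline 34, and *Dcn*, at 445 and 448 CPM in the same order, were the lowest of their groups, whereas *Lum* in ethanol 59 (16.4 CPM) and *Col3a1* in saline 34 (129.6 CPM) lay within the range of the others. Partners of the classical complement pathway summed to 282 CPM in ethanol 59 (343 to 395) and 269 CPM in saline 34 (333 to 364), and lymphatic endothelial markers to 46.0 CPM (51.3 to 59.4) and 43.1 CPM (53.7 to 63.4), in the same order. Fibre markers summed to 152274 CPM in ethanol 59 (125928 to 141579 in the other ethanol libraries) and to 137601 CPM in saline 34, within the saline range. Sums of other lists went the other way. That of the resident macrophage list was highest in ethanol 59, at 313 CPM (214 to 290.5 in the other ethanol libraries). Most of it was *Maf*, at 151 CPM, and *Gas6*, at 99.8 CPM. Of its other named genes, *Stab1* in ethanol 59 (12.5 CPM) was the lowest of the ethanol group, and *Cd209f* (0.86 CPM) lay within the range of the others. Adipocyte markers in saline 34, at 638 CPM, were the highest of the saline group (454 to 574 in the rest). Ethanol 60, which held the most adipocyte transcripts (1393 CPM over 10 markers, against 602 to 765 in the other ethanol libraries), was the highest ethanol library for 5 macrophage genes. The part of these cell mixtures in the macrophage values was not tested.

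**Figure D3:**
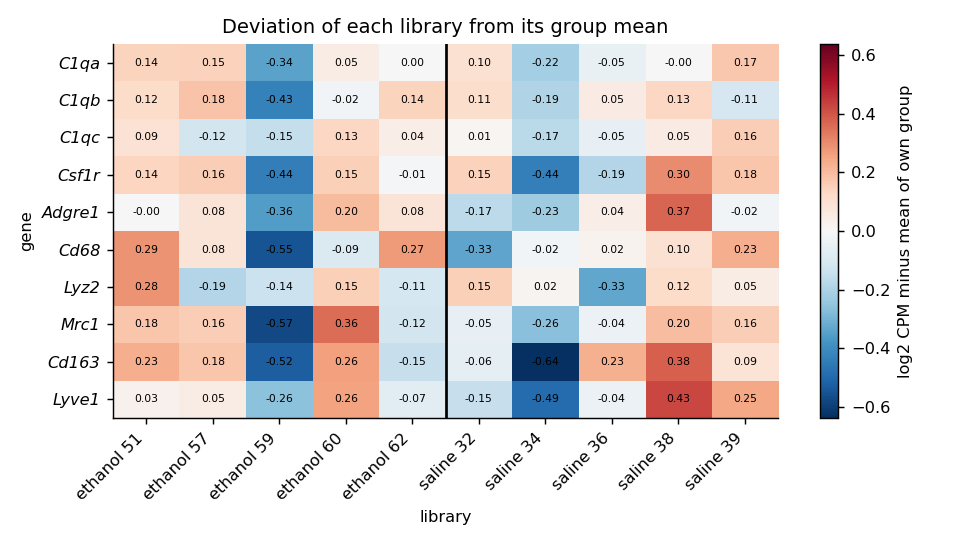
Log2 CPM of each macrophage marker gene in each library minus the mean of its own group, written in each cell (red above, blue below), ethanol libraries left of saline. Ethanol 59 is below 0 for all 10 genes and saline 34 for 9 of them.

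Over the 10 libraries, centred on their group means, the 45 pairs of macrophage genes had Pearson r from 0.14 to 0.88, with a median of 0.66. The highest were *Csf1r* with *C1qa* (r = 0.88, Spearman's rho = 0.70), *Cd163* with *Lyve1* (r = 0.88, rho = 0.88) and *Mrc1* with *Cd163* (r = 0.87, rho = 0.94). *Lyz2* was the least alike, with r of 0.14 to *Cd68* and *C1qb*. Ethanol 59 carried part of this: without it the median r was 0.41, 39 of the 45 pairs stayed above 0, and *C1qb* with *C1qc* dropped to -0.0045, against 0.40 with it. *Mrc1* with *Cd163* was at 0.83 and *Cd163* with *Lyve1* at 0.87 without it. These are descriptions over 10 libraries that share a preparation and the scaling of each library, and no p is attached.

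Of 10792 genes at 2 CPM or more, the one most like the mean of the macrophage genes over the 10 group-centred libraries was *Cybb*, encoding a subunit of the phagocyte NADPH oxidase (r = 0.98). It stood at 3.30 ± 0.83 CPM in ethanol and 2.95 ± 0.62 CPM in saline (SD, n = 5 each, edgeR FDR = 0.777). The other 7 were *Tigd5* (r = 0.98), *Sap130* and *Sin3a*, both of the Sin3 corepressor complex (0.95 each), the cathepsin gene *Ctsk* (0.94), the collagen gene *Col4a4* (0.94), *Rab8b* (0.94) and the complement gene *C3* (0.93). Of the 2 genes most like each single macrophage gene, 20 in all, none was another macrophage gene of the 10. They included *Cyth4* for *C1qa* (r = 0.96), *Tigd5* for *Csf1r* (0.98), *Ebf2* for *Cd163* (0.98), *Slc35c1* for *Mrc1* (0.97), *Il17ra* for *Adgre1* (0.93) and *Met* for *Lyz2* (0.96). All these genes were picked as the highest among 10792 over only 10 libraries, where selection alone gives high r values, and no p is attached.

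Without ethanol 59 all 10 log2 fold changes were above 0, and none passed FDR 0.05. *C1qa* stood at 0.30 ± 0.09 (SE, edgeR FDR = 0.372), *C1qb* at 0.28 ± 0.10 (FDR = 0.385) and *Csf1r* at 0.31 ± 0.13 (FDR = 0.466), and these 3 had an unadjusted p under 0.05, where 5.99% of all genes tested in that fit lay on the higher side. The groups then no longer overlapped for *C1qa* (15.2 to 16.8 CPM in ethanol, at most 14.6 CPM in saline) and *C1qb* (11.3 to 12.9 CPM in ethanol, at most 11.01 CPM in saline). Ethanol 59 was the lowest ethanol library for 9 of these same genes, so leaving it out favours larger differences and such a separation by construction. The share of all genes without overlap was not counted for that fit. With all libraries no macrophage gene had groups that did not overlap, against 2.18% of all genes (1.36% with ethanol higher).

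Leaving out other libraries gave other values. Of the 10 log2 fold changes, 6 were above 0 without ethanol 51 or without ethanol 60, and 7 without saline 32, 34 or 36. The number was 8 without ethanol 57 or 62, 9 without saline 39 and 10 without saline 38. Without saline 34, the log2 fold change of *Csf1r* was 0.13, against 0.22 with all libraries, and that of *C1qa* was 0.18. None of the 10 genes had an unadjusted p under 0.05 by edgeR without ethanol 51, 57, 60 or 62, or without saline 34 or 36, and 1 had it without saline 32, 38 or 39. None of the 10 genes passed FDR 0.05 in these fits.

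**Figure D4:**
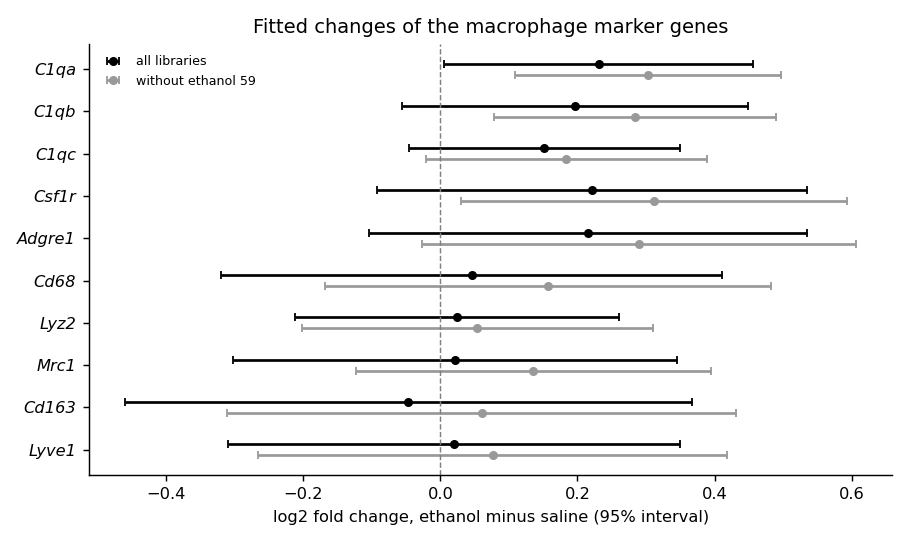
Log2 fold change, ethanol minus saline, of each macrophage marker gene with its 95% interval by edgeR, with all 10 libraries (black) and without ethanol 59 (grey). With all libraries the interval of *C1qa* alone lies above 0, from 0.0054 to 0.46, and none of the 10 genes passes FDR 0.05.

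Other genes of macrophages and of their partners were counted by lists, beside 50.2% of all genes with a positive log2 fold change and 12.1% with an unadjusted p under 0.05 (6.22% higher, 5.91% lower). Of 14 tested macrophage and myeloid identity genes 11 had a positive log2 fold change (median 0.10). An unadjusted p under 0.05 was found for 1 of the 14, *Spi1*, a share near that of all genes. *Spi1* stood at 2.26, 1.91, 1.72, 2.03 and 1.49 CPM in ethanol 51, 57, 59, 60 and 62, against 1.26, 1.18, 1.79, 1.502 and 1.43 CPM in saline 32, 34, 36, 38 and 39 (log2 fold change 0.40 ± 0.17, SE, edgeR FDR = 0.388). The adaptor gene *Fcer1g* (0.20 ± 0.14), the lysosomal membrane gene *Laptm5* (0.23 ± 0.14), the leukocyte phosphatase gene *Ptprc* (0.16 ± 0.17) and the cathepsin gene *Ctss* (0.11 ± 0.12) had intervals that included 0. *Aif1*, *Cx3cr1*, *Trem2* and *Fcgr1* were too low to be tested, at most 15 counts in any library.

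All 11 tested genes of the resident macrophage list had a positive log2 fold change (median 0.21), where 50.2% of all genes were positive. None passed FDR 0.05, and 1 of the 11 had an unadjusted p under 0.05 on the higher side, near the 6.22% of all genes. This was *Gas6*, a ligand of the receptors that clear dying cells, which is made by many cell types. It stood at 89.7, 119, 99.8, 97.1 and 98.0 CPM in ethanol 51, 57, 59, 60 and 62, against 85.1, 80.5, 81.8, 86.7 and 88.1 CPM in saline 32, 34, 36, 38 and 39, so the groups did not overlap (log2 fold change 0.25 ± 0.08, SE, edgeR FDR = 0.303). Groups apart with ethanol higher were found for 1 of the 11 genes and for 1.36% of all genes. The scavenger receptor gene *Stab1* (0.21 ± 0.14), which sinusoidal endothelium also uses, and the lectin gene *Cd209f* (0.38 ± 0.21) overlapped. *Maf* (0.37 ± 0.25) ranged from 53.9 to 151 CPM in ethanol and from 59.1 to 83.8 CPM in saline.

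The ligands of CSF1R stood at 10.1 ± 1.40 CPM in ethanol and 8.21 ± 1.06 CPM in saline for *Csf1*, and at 5.39 ± 0.54 CPM in ethanol and 4.93 ± 0.50 CPM in saline for *Il34* (SD, n = 5 each). Their log2 fold changes were 0.30 ± 0.12 (SE, edgeR FDR = 0.364) and 0.13 ± 0.11 (FDR = 0.668). Of 9 tested partners of C1q in complement 7 were positive and none passed FDR 0.05. The protease gene *C1s1* stood at 41.5 ± 6.63 CPM in ethanol and 34.4 ± 3.28 CPM in saline (log2 fold change 0.27 ± 0.11, SE, FDR = 0.373). *C2*, the next protease substrate, stood at 4.81 ± 0.99 CPM in ethanol and 3.38 ± 0.88 CPM in saline (0.51 ± 0.19, FDR = 0.353). *C1ra* (0.24 ± 0.15), the C1 inhibitor gene *Serping1* (0.12 ± 0.11) and the receptor gene *C5ar1* (-0.37 ± 0.20) had intervals that included 0.

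Genes of antigen presentation by MHC class II, which macrophages and dendritic cells share, had larger differences than the 10 markers. *H2-Ab1*, encoding a class II beta chain, stood at 20.5, 20.6, 16.5, 17.9 and 15.8 CPM in ethanol 51, 57, 59, 60 and 62, against 15.3, 13.8, 11.2, 13.6 and 13.6 CPM in saline 32, 34, 36, 38 and 39. Every ethanol library lay above every saline library, which held for 1 of the 9 tested monocyte and antigen presentation genes and 1.36% of all genes. The log2 fold change was 0.44 ± 0.10 (SE, edgeR FDR = 0.287), and DESeq2 gave it an adjusted p of 0.0473, so the call depends on the tool. *H2-Eb1*, another beta chain gene (0.47 ± 0.12), *Cd74*, the invariant chain gene (0.43 ± 0.11), and *H2-Aa*, an alpha chain gene (0.38 ± 0.11), passed with neither tool, at DESeq2 adjusted p values of 0.0661, 0.0795 and 0.0996.

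*Cd74* stood at 43.6 ± 7.91 CPM in ethanol and 32.4 ± 2.65 CPM in saline (SD, n = 5 each), with 48.5 and 53.7 CPM in ethanol 51 and ethanol 57 and 35.3 CPM in ethanol 59, just below the highest saline library at 35.6 CPM. Of the 9 tested genes of this monocyte and antigen presentation list 5 had an unadjusted p under 0.05, all on the higher side (6.22% of all genes). The fifth was *Ccr2*, the chemokine receptor gene of monocytes, which lies outside the rule for named genes and was chosen after its values were seen (0.63 log2 fold change, edgeR FDR = 0.287). The costimulator gene *Cd86* was at -0.22 and *Cd52* at -0.27 on the same scale, both outside that rule as well. Fibroblast, vascular endothelial and adipocyte markers had values in the same direction, with 9 of 10, 9 of 10 and 10 of 10 above 0, against 50.2% of all genes. An unadjusted p under 0.05 on the higher side was found for 2, 3 and 5 of them in that order. Among these were *Kdr* at 0.46 ± 0.14, *Plvap* at 0.37 ± 0.14 and *Tie1* at 0.20 ± 0.07, of endothelium, *Pi16* at 0.48 ± 0.13, *Col3a1* at 0.46 ± 0.14 and *Plin1* at 1.24 ± 0.43 (log2 fold change ± SE). The adipocyte marker *Lipe*, at 0.54 ± 0.13 (edgeR FDR = 0.287), had a DESeq2 adjusted p of 0.0496, as *H2-Ab1* also passed by that tool alone. Groups did not overlap for 3 of the 10 adipocyte markers, against 2.18% of all genes. Fibroblast markers summed to 2727 ± 400.4 CPM in ethanol and 2516 ± 284 CPM in saline, vascular markers to 538 ± 65.2 CPM in ethanol and 469 ± 41.7 CPM in saline, and adipocyte markers to 813 ± 332 CPM in ethanol and 557 ± 66.1 CPM in saline (SD, n = 5 each). Their part in the class II values was not tested.

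Genes of macrophage activation were mostly too low to be tested, with 7 of 18 passing the filter. *Tnf*, *Ccl3*, *Ccl4* and *Arg1* had at most 7 counts in any library. *Il1b*, *Ccl2*, *Ccl7* and *Il6* reached 36, 39, 30 and 16 counts in that order and were not tested either. Their mean CPM was lower in ethanol, that of *Cxcl2* and *Arg1* was higher, and the groups overlapped for each. *Tlr4*, the receptor for lipopolysaccharide, stood at 6.66, 4.36, 5.12, 5.77 and 6.21 CPM in ethanol 51, 57, 59, 60 and 62, against 8.16, 5.83, 8.06, 9.78 and 6.76 CPM in saline 32, 34, 36, 38 and 39. Most ethanol values lay below the saline values, with overlap at saline 34 (log2 fold change -0.46 ± 0.15, SE, edgeR FDR = 0.322). The inducible nitric oxide synthase gene *Nos2* (0.40 ± 0.22), the NF-kB inhibitor gene *Nfkbia* (0.17 ± 0.15) and the haem oxygenase gene *Hmox1* (-0.84 ± 0.55) had intervals that included 0. *Cd36*, by far the highest of the list, is also used by muscle fibres and endothelium, at 753 ± 76.8 CPM in ethanol and 781 ± 79.3 CPM in saline (SD, n = 5 each).

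*Lyve1* and *Stab2* are also genes of lymphatic endothelium. Of the 6 tested lymphatic markers 2 were positive and 4 negative, with *Prox1* at -0.43 ± 0.30, *Flt4* at 0.26 ± 0.13, *Reln* at -0.07 ± 0.20 and *Stab2* at -0.16 ± 0.16 (log2 fold change ± SE), none at FDR 0.05. *Ccl21a* is listed at 0 in every library. Lymphatic markers summed to 52.8 ± 4.85 CPM in ethanol and 54.9 ± 7.49 CPM in saline (SD, n = 5 each), so *Lyve1* RNA from that source was not separated from macrophage RNA.

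**Figure D5:**
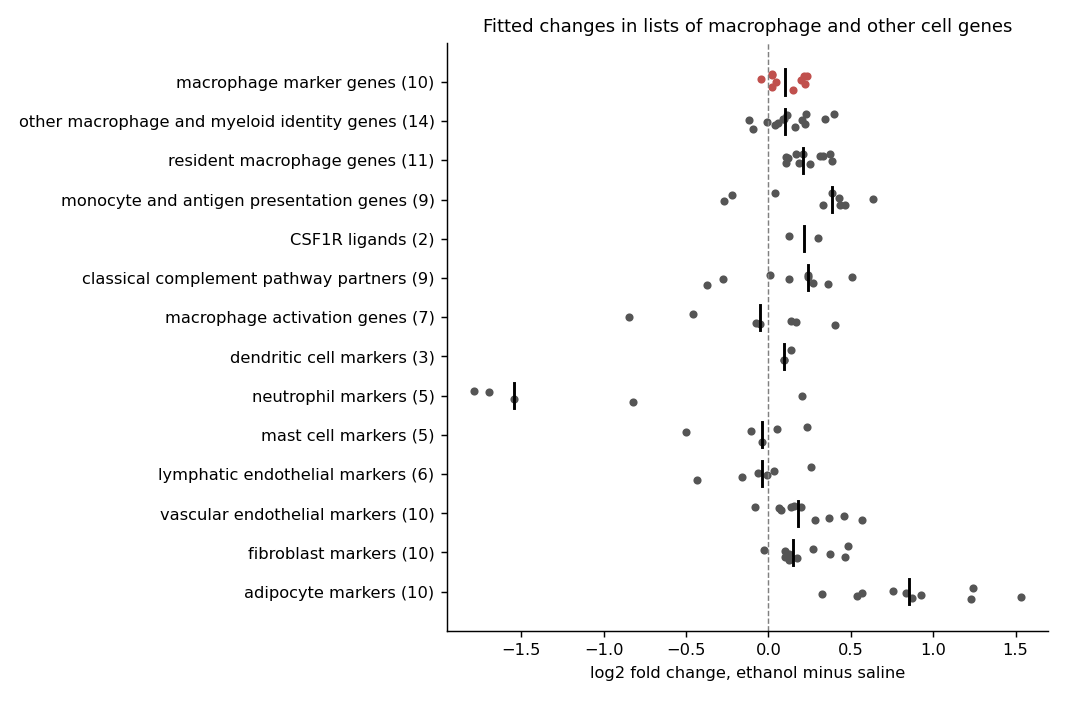
Log2 fold change, ethanol minus saline, of each tested gene (points) and the median (black bar) in lists of macrophage genes and of other cells, with the number of tested genes in brackets. The 10 macrophage marker genes (red) lie between -0.05 and 0.23, and the median of the antigen presentation list is 0.38.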

How the data were processed

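RNA of gastrocnemius and plantaris was measured in 5 ethanol and 5 saline mice. The authors deposited whole-number read counts per gene symbol. Per the labels' protocols, libraries were poly(A)-selected and read from a single end. The submitters' processing notes list mm10, DESeq2 1.6.3 and TopHat2. No source used here gives the counter, annotation or strand setting. Of 24421 rows, 27 carry a date for a symbol (0.0972% of counts) and were kept in library totals and tests without being named.

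Genes were kept by filterByExpr (minimum count 10, total 15), which left 13180, and scaled by TMM. Groups were compared in edgeR 4.0.16 by quasi-likelihood with robust dispersions and Benjamini-Hochberg adjustment. Standard errors are the log2 fold change over the square root of F. Alternatives were DESeq2 1.42.0, limma 3.58.1 (voom), other scalings and filters, and libraries left out, in R 4.3.3. Per-length levels use GENCODE M21. Log2 CPM has a prior count of 2. The procedure was tested on simulated data with planted changes larger than any fitted for the macrophage genes. That test does not show whether changes of their size would be found. Libraries of 1 group differed by more than counting allows (chi-square over its degrees of freedom, 13.9 to 98.7), and each was counted as 1 sample. Each library is a separate animal by its number. Counting precision is that of 48 to 2183 counts per macrophage gene and library.

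Named genes were every marker, up to 4 per list with the smallest p and the 2 with the highest level, and the genes most like the markers over libraries. Genes and lists were chosen with earlier results of these data known. Some genes that the rule names are not reported here.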

Additional observations from a re-analysis of the deposited data

Results flagged for a closer look

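The mean log2 CPM of the 10 macrophage marker genes was 3.05 in ethanol 59, against 3.43 to 3.57 in the other ethanol libraries. It was flagged because its gap to the nearest library took 0.735 of the range of the group. Of 24 sets of 5 values checked in this way (10 genes, this mean and the library total, in each group), this was the 1 that was flagged, and chance flags about 1 in 20. Without ethanol 59 the median log2 fold change of the genes was 0.17, against 0.10 with it.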

How the results depend on the processing

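No macrophage marker gene passed FDR 0.05 in any of the 18 alternatives, and the median log2 fold change of the genes stayed between 0.07 and 0.17. The minimum of 5 CPM removed *Cd68* and *Adgre1*, so its median is over 8 genes. Over all genes the count at FDR 0.05 was 0 with edgeR, 55 with DESeq2 and 0 with limma-voom (1599, 1777 and 1616 at an unadjusted p under 0.05), and from 0 to 1 with a library left out. A count of 1 was found without ethanol 57 and a count of 1 without saline 34, and whether it was the same gene was not compared.

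Log2 fold changes of *C1qa*, *C1qb*, *C1qc*, *Csf1r* and *Adgre1* were positive throughout. With a library left out, that of *Cd68* ran from -0.037 to 0.16, of *Lyve1* from -0.085 to 0.14, of *Mrc1* from -0.069 to 0.14, of *Lyz2* from -0.057 to 0.067 and of *Cd163* from -0.17 to 0.060. *Mrc1* was at -0.00080 with limma-voom. Without ethanol 60 and saline 36 together *Mrc1* was at -0.088, *Lyz2* at -0.095 and *Lyve1* at -0.071. The cause was not tested. No paired analysis was possible because no animal number occurs in both groups. *Cd68* and *Adgre1* are limited most by depth, and all ethanol libraries held fewer counts than any saline library.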

Other observations

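Markers of neutrophils, mast cells and lymphocytes stood low in both groups. Of 9 neutrophil markers with a row, 5 were tested and 4 had a negative log2 fold change. *S100a8*, a subunit gene of calprotectin, stood at 0.32, 0.91, 0.24, 0.38 and 0.25 CPM in ethanol 51, 57, 59, 60 and 62, against 0.81, 0.63, 1.15, 1.17 and 3.21 CPM in saline 32, 34, 36, 38 and 39 (log2 fold change -1.70 ± 0.52, SE, edgeR FDR = 0.313). *S100a9*, the gene of the partner subunit, was at -1.54 ± 0.55 (FDR = 0.341), and saline 39 held 5.84 CPM of it against 1.23 to 2.24 CPM in the other saline libraries. Of 6 mast cell markers 5 were tested, and 2 had a positive and 3 a negative log2 fold change (median -0.04). *Cpa3*, a mast cell carboxypeptidase gene, stood at 1.65 ± 0.34 CPM in ethanol and 2.35 ± 0.57 CPM in saline (SD, n = 5 each, log2 fold change -0.50 ± 0.20, FDR = 0.364). The others were *Cma1* at 0.05 ± 0.22, *Mcpt4* at -0.04 ± 0.29, *Tpsb2* at -0.11 ± 0.15 and *Mrgprb1* at 0.23 ± 0.30 (log2 fold change ± SE). The 10 lymphocyte markers summed to 0.60 ± 0.14 CPM in ethanol and 0.60 ± 0.23 CPM in saline, and none was tested.

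All 6 globin genes of the red cell list are listed at 0 in every library, whereas *Alas2*, the haem synthesis enzyme gene of red cell precursors, stood at 11.2 to 19.5 CPM in ethanol and 7.97 to 50.3 CPM in saline.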
